A study of Homo sapiens with 6 samples.

Results

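Nucleic acid sensors are proteins that recognise RNA or DNA in the wrong place or form, and 10 of their genes were followed in L428 cells after a BATF3 siRNA and after a negative control siRNA. They were chosen by name, as RIGI, IFIH1, DHX58, MAVS, EIF2AK2, ZBP1, TLR3, TLR7, TLR8 and TLR9, and every probe set that the platform annotation gives to 1 of these symbols alone was used. This gave 26 probe sets, among 49393 that were tested and 18244 genes with a probe set of their own. L428 is an established human Hodgkin lymphoma line. In both groups the cells were nucleofected, a form of electroporation, with 3 µg of siRNA and cultured for 48 hours. The BATF3 siRNA group held 3 arrays, all of 1 siRNA against the transcription factor gene BATF3, and the negative control siRNA group held 3 arrays. Total RNA was read on Affymetrix PrimeView arrays as log2 signal per probe set. Since both groups received an siRNA and cells without one were not analysed here, the comparison shows where the 2 siRNAs differed, and a response common to both would not appear in it.

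The sensors fall into cytosolic and endosomal groups. RIG-I (RIGI) and MDA5 (IFIH1) are helicases that bind double-stranded RNA in the cytosol and signal through the mitochondrial adaptor MAVS, while LGP2 (DHX58) binds such RNA and tunes the signal of the other two. PKR (EIF2AK2) is a kinase that stops translation when double-stranded RNA activates it, and ZBP1 recognises nucleic acid in the Z form and can start necroptosis. In endosomes TLR3 binds double-stranded RNA, TLR7 and TLR8 bind single-stranded RNA and its breakdown products, and TLR9 binds DNA with unmethylated CpG. Signalling by RIG-I, MDA5 and the Toll-like receptors can end in interferon, and interferon in turn raises the transcripts of several sensors. Some siRNA duplexes are known to set off PKR, RIG-I or the endosomal receptors, depending on their sequence and chemistry. The transcript levels of the sensors were therefore read here as a check, but activation of the proteins was not measured.

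BATF3 itself, the targeted gene, read 10.87, 10.76 and 10.69 in the BATF3 siRNA arrays, against 11.89, 12.08 and 11.94 in the control siRNA arrays. The change was −1.20 (SE 0.098; 95% confidence interval −1.42 to −0.98), a ratio of 0.436, with a Benjamini-Hochberg adjusted p = 0.0193 in limma. The arrays were alike in median (6.24 to 6.32). They were not alike in the GC-rich background probes (20 to 25 G or C bases), whose mean was 6.49 in BATF3 siRNA replicate 1, 5.92 in replicate 2 and 5.98 in replicate 3, against 6.46 to 6.49 with control siRNA. With the 2 low-background arrays as a block, which leaves BATF3 siRNA replicate 1 against the 3 control siRNA arrays, BATF3 stood at −1.10 (limma adjusted p = 0.316). Leaving out any 1 of the 6 arrays also ended the BATF3 call (adjusted p = 0.0528 to 0.191), with a change of −1.24 to −1.14. Nothing in the labels states whether replicates were separate cultures, and the p-values therefore measure array-to-array spread that may be technical.

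None of the 10 sensor genes passed the test used here, which does not show that they were unchanged. Across the 26 probe sets 0 passed limma's test at an adjusted p under 0.05, where 0.0101% of all probe sets did (0.00405% higher and 0.00607% lower). At an unadjusted p under 0.05 there were 3 of 26, all higher after BATF3 siRNA, where 7.16% of all probe sets reached it. Welch's test put 2 of the 26 under an unadjusted p of 0.05 and called none, but it called 0 of all 49393 probe sets (2286 under an unadjusted 0.05), so its lack of calls says nothing about the sensors. The BATF3 siRNA arrays lay wholly above the control siRNA arrays in 3 of the 26 probe sets (6.38% of all probe sets) and wholly below them in 1 (5.86%), and the groups overlapped in 22. The 3 were the TLR3 probe set, 1 of 2 for EIF2AK2 and 1 of 4 for DHX58, and the 1 was for MAVS. The median change of the 26 probe sets was 0.016, against −0.0036 over all probe sets. Changes ran from −0.19 to 0.42, and the 95% confidence intervals together reached from −0.45 to 0.63, and no larger change lay within any of them. With so few arrays the smallest two-sided p of an exact permutation test is 0.1, the value reached by each of the 4 probe sets whose groups did not overlap.

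**Figure D1:**
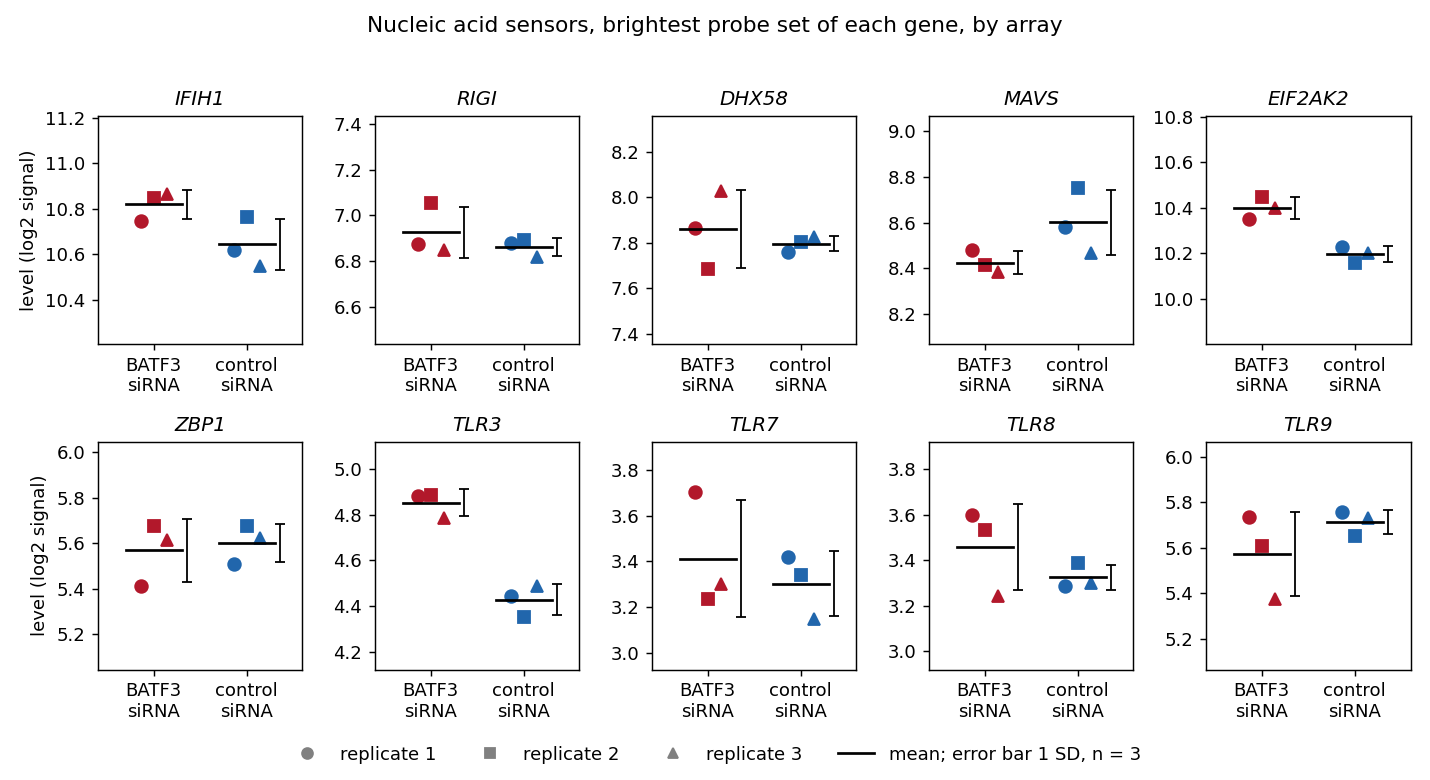
Level (log2 signal) of the brightest probe set of each sensor gene on each array, BATF3 siRNA left and control siRNA right, with the group mean (line) and 1 SD (bar, over 3 arrays); every panel spans 1 log2 unit. TLR3 and EIF2AK2 are the panels in which the 2 groups do not overlap, with BATF3 siRNA higher in both.

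How far a sensor stood above the arrays' own background differed between genes. The highest of the 23 background probe sets, the one whose probes hold 25 G or C bases, read 7.18, 6.68 and 6.73 in the BATF3 siRNA arrays and 7.32, 7.11 and 7.16 in the control siRNA arrays. Of the 26 sensor probe sets 8 were above it in every array (30.8%, against 37.6% of all probe sets), and they belonged to 4 genes, IFIH1, EIF2AK2, DHX58 and MAVS. Another 17 were under it in every array, and the brightest RIGI probe set was above it in 2 arrays, BATF3 siRNA replicates 2 and 3, where this limit was lowest. RIGI, ZBP1 and the Toll-like receptors TLR3, TLR7, TLR8 and TLR9 thus had no probe set above it throughout. The base composition of the sensor probes was not examined. A dim value may therefore hold more or less background than this limit implies, and changes of dim probe sets are of uncertain size.

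**Figure D2:**
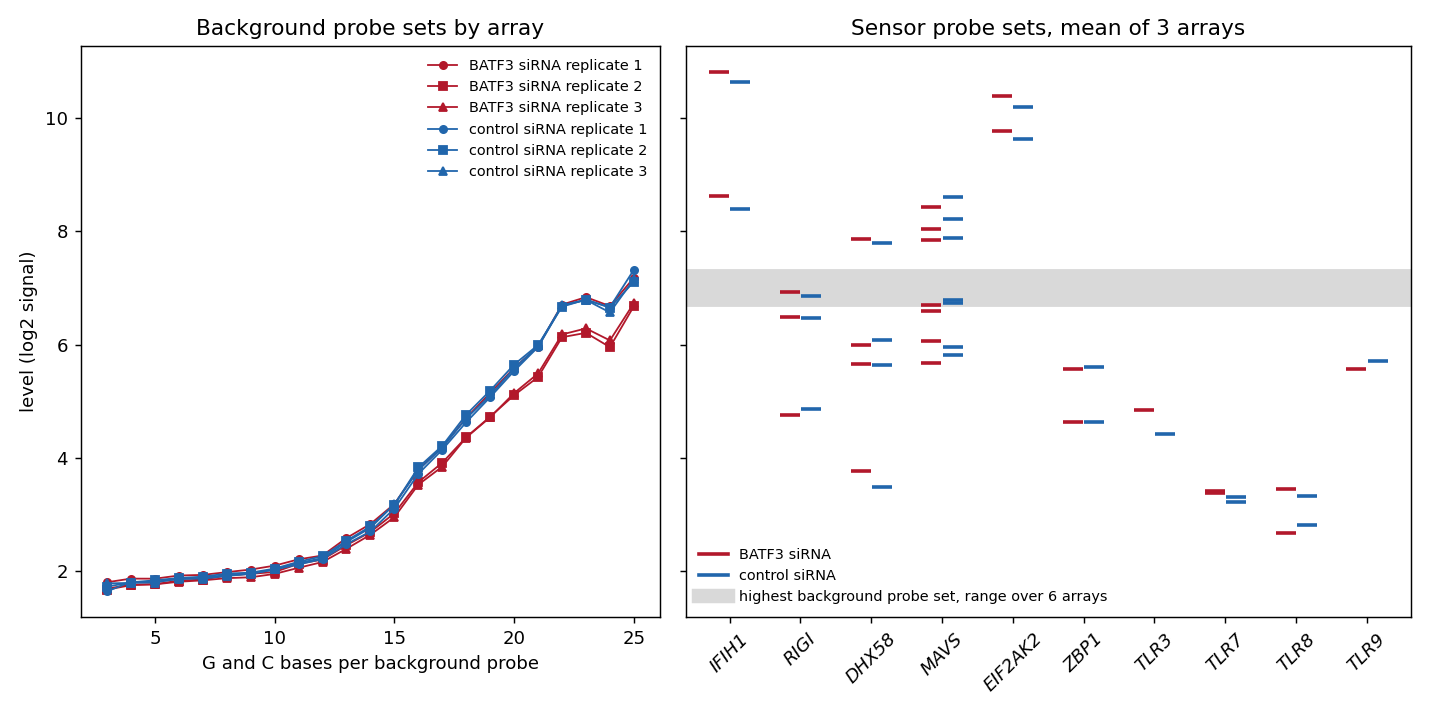
Left, log2 signal of the background probe sets on each array against their number of G and C bases; right, mean log2 signal of each sensor probe set after BATF3 siRNA and control siRNA, with the range of the highest background probe set over the 6 arrays as a grey band. BATF3 siRNA replicates 2 and 3 run below the other 4 arrays at the GC-rich end, and only IFIH1, EIF2AK2, DHX58 and MAVS have probe sets above the band.

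Of the sensors well above background, IFIH1 and EIF2AK2 were both somewhat higher in the BATF3 siRNA mean without passing the test. TLR3, the dim receptor with the largest change of the 26 probe sets, had the same direction. The stretches around their transcription start sites are shown because they held the core letters of the interferon-stimulated response element. Through this site interferon signalling raises many of these genes. Of the 7 sensors with a window at hand, only these 3 held the letters. Each window runs from 250 bases before the RefSeq start site to 50 bases after it (GRCh38.p14), reads 5′ to 3′ in the direction of the gene, and has in capitals every match to GAAANNGAAA on either strand (TTTCNNTTTC on the printed strand where the match lies on the other).
TLR3, chr4:186068906-186069205, plus strand: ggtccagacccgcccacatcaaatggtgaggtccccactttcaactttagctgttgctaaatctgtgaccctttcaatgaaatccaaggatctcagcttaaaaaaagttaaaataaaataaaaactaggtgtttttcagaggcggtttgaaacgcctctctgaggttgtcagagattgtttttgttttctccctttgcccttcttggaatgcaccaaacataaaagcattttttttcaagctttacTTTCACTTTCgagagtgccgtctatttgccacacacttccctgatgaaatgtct
IFIH1, chr2:162318635-162318934, minus strand: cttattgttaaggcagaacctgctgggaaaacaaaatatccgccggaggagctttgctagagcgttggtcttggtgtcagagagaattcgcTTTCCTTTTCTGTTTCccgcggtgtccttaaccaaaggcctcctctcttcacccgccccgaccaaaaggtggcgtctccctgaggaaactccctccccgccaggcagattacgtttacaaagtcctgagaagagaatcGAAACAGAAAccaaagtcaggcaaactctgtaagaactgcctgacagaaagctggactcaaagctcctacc
EIF2AK2, chr2:37156931-37157230, minus strand: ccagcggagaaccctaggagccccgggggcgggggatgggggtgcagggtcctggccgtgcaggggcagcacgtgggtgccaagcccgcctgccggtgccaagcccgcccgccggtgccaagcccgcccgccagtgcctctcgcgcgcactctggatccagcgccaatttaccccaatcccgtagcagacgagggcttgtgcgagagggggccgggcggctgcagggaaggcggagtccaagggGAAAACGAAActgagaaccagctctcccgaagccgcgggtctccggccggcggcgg

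The match covers bases 247 to 256 of the TLR3 window and bases 245 to 254 of the EIF2AK2 window, across the start site in both. IFIH1 has 3 matches, at bases 230 to 239 and, overlapping each other, at 92 to 101 and 98 to 107. RefSeq windows were at hand for 7 of the 10 sensors, and RIGI, MAVS, TLR8 and TLR9 had no match in theirs. Only a gap of 2 bases was searched, so GAAA repeats at another spacing, such as that in the RIGI window, do not count. For DHX58, TLR7 and ZBP1 no window was at hand, so a match there is unknown. Over all 35116 RefSeq windows of this length 3.57% held a match. The 3 sensors with a match changed by 0.42 (TLR3), 0.17 (IFIH1) and 0.20 (EIF2AK2) in their brightest probe set, and the 4 without one by 0.064 (RIGI), −0.18 (MAVS), 0.13 (TLR8) and −0.14 (TLR9). DHX58, TLR7 and ZBP1, which had no window, changed by 0.064, 0.11 and −0.032 in their brightest probe set. None of the 10 sensors passed the test. A match in letters is a description, and binding there was not measured. Whether a match has a part in these changes was not tested.

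IFIH1 encodes MDA5, the cytosolic sensor of long double-stranded RNA. Its brighter probe set, 11724346_a_at, read 10.74, 10.85 and 10.86 in the BATF3 siRNA arrays, against 10.62, 10.77 and 10.55 in the control siRNA arrays. Control siRNA replicate 2 lay above BATF3 siRNA replicate 1, so the groups overlapped. The change was 0.17 (SE 0.096; 95% confidence interval −0.042 to 0.39; limma adjusted p = 0.773), a ratio of 1.13 with an interval of 0.971 to 1.31. The second probe set, 11761686_at, read 8.21, 8.84 and 8.84 after BATF3 siRNA and 8.33, 8.61 and 8.25 after control siRNA, a change of 0.24 (adjusted p = 0.832). Here BATF3 siRNA replicate 1, with the background of the controls, was the lowest of all 6 arrays, and replicates 2 and 3, with the lower background, were the highest. With background as a block its change turned to −0.19, while that of 11724346_a_at was 0.10. Whether background has a part in the second probe set's pattern was not tested further.

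RIGI, the sensor of short double-stranded RNA with triphosphate ends, had 3 probe sets with little change in any. The brightest, 11755819_a_at, read 6.87, 7.05 and 6.85 in the BATF3 siRNA arrays, against 6.88, 6.89 and 6.82 in the control siRNA arrays. Apart from BATF3 siRNA replicate 2, the arrays lay within a narrow band. The change was 0.064 (95% confidence interval −0.15 to 0.28; limma adjusted p = 0.925), and it turned to −0.00074 without BATF3 siRNA replicate 2. The other two changed by 0.0092 and −0.099.

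DHX58 encodes LGP2, which lacks the signalling domains of RIG-I and MDA5. Its brightest probe set, 11721897_a_at, read 7.87, 7.69 and 8.03 after BATF3 siRNA and 7.76, 7.80 and 7.83 after control siRNA. The control siRNA values lay inside the range of the BATF3 siRNA values. The change was 0.064 (95% confidence interval −0.17 to 0.30; limma adjusted p = 0.935), and without BATF3 siRNA replicate 3 it was −0.020. The dimmest of its 4 probe sets, 11762013_at, was the one whose groups did not overlap, at 3.88, 3.72 and 3.73 after BATF3 siRNA, against 3.51, 3.32 and 3.61 after control siRNA (change 0.30, adjusted p = 0.635). On no array did it come near the brightest background probe set, and the 2 remaining probe sets changed by −0.082 and 0.022, so the DHX58 probe sets did not share a direction.

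MAVS, the mitochondrial adaptor that RIG-I and MDA5 share, leaned the other way. Of its 7 probe sets 6 were lower in the BATF3 siRNA mean, with 0 called, where 48.9% of all probe sets had a positive change. Probe sets of 1 gene are not independent counts. The brightest, 11727037_at, read 8.48, 8.41 and 8.38 in the BATF3 siRNA arrays, against 8.58, 8.75 and 8.47 in the control siRNA arrays. BATF3 siRNA replicate 1 lay just above control siRNA replicate 3, and the rest were apart. The change was −0.18 (95% confidence interval −0.40 to 0.051; limma adjusted p = 0.782). The next, 11727040_at, read 8.10, 7.99 and 8.02 after BATF3 siRNA and 8.14, 8.40 and 8.15 after control siRNA, a change of −0.19 (95% confidence interval −0.42 to 0.044; adjusted p = 0.772). Its groups did not overlap, though BATF3 siRNA replicate 1 and control siRNA replicate 1 lay close together. The third probe set above background, 11752037_a_at, changed by −0.031, and the 4 dimmer ones by −0.14 to 0.11. The 3 probe sets that turned positive with background as a block were 11752037_a_at (0.090), 11727039_at (0.19) and 11748283_a_at (0.060), and 11727038_a_at turned negative (−0.15). The 2 brightest kept a negative change under every alternative that was run, at −0.10 each without control siRNA replicate 2.

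EIF2AK2 encodes PKR, which phosphorylates the translation factor eIF2alpha. Its brighter probe set, 11730992_x_at, read 10.35, 10.45 and 10.40 in the BATF3 siRNA arrays, against 10.23, 10.16 and 10.20 in the control siRNA arrays. The lowest BATF3 siRNA value exceeded the highest control siRNA value. The change was 0.20 (SE 0.086; 95% confidence interval 0.0072 to 0.40), a ratio of 1.15, with an unadjusted p of 0.0436 in limma and an adjusted p = 0.691. The suffix _x_at marks sets in which some probes can bind other transcripts. The second probe set, 11730991_a_at, read 9.70, 9.78 and 9.84 after BATF3 siRNA and 9.59, 9.76 and 9.55 after control siRNA, a change of 0.14 with overlapping groups (adjusted p = 0.817). Both were positive under every alternative, at 0.15 to 0.23 and 0.065 to 0.22, with adjusted p-values of 0.204 or more.

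ZBP1, the sensor of Z-form nucleic acid, was dim and showed little change. Its brighter probe set read 5.41, 5.68 and 5.62 in the BATF3 siRNA arrays, against 5.51, 5.67 and 5.62 in the control siRNA arrays. The 2 groups covered almost the same range. The change was −0.032 (95% confidence interval −0.27 to 0.20; limma adjusted p = 0.97), and the second probe set changed by −0.0076, a sign that turned when the arrays were rescaled in 3 ways.

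TLR3, the endosomal receptor for double-stranded RNA, had the largest change of the 26 probe sets. Its only probe set, 11730296_a_at, read 4.88, 4.89 and 4.79 in the BATF3 siRNA arrays, against 4.44, 4.35 and 4.49 in the control siRNA arrays. The 2 groups were clearly apart, and the spread within each was small (SD 0.059 after BATF3 siRNA and 0.069 after control siRNA, over 3 arrays each). The change was 0.42 (SE 0.090; 95% confidence interval 0.22 to 0.63), a ratio of 1.34 with an interval of 1.17 to 1.54. The unadjusted p in limma was 0.001, but over all 49393 probe sets the adjusted p = 0.352. It stayed positive under the 15 alternatives that kept the probe set, at 0.37 to 0.46, with adjusted p-values of 0.10 to 0.932. The lowest came with array weights, which were 0.903, 0.414 and 3.51 for the control siRNA arrays and so rested their mean mostly on replicate 3. With background as a block, which leaves BATF3 siRNA replicate 1 alone against the controls, the change was 0.46 (adjusted p = 0.813). The part of background in the TLR3 difference was not tested further. TLR3 was dimmer than the brightest background probe set on all 6 arrays, so the size of its change is uncertain.

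TLR7 and TLR8, the endosomal receptors for single-stranded RNA, read between 2.63 and 3.70 in every array, far below the brightest background probe set. The brighter TLR7 probe set read 3.70, 3.23 and 3.30 after BATF3 siRNA and 3.42, 3.34 and 3.15 after control siRNA (change 0.11, 95% confidence interval −0.20 to 0.42, limma adjusted p = 0.909). The difference came from BATF3 siRNA replicate 1, without which the change was −0.036. For TLR8 the brighter probe set read 3.60, 3.53 and 3.24 after BATF3 siRNA and 3.29, 3.39 and 3.30 after control siRNA (change 0.13, 95% confidence interval −0.12 to 0.38, adjusted p = 0.851). Without BATF3 siRNA replicate 1 the change was 0.064, and without replicate 3 it was 0.24. The other TLR8 probe set changed by −0.14, so the pair disagreed in sign. TLR9, the receptor for CpG DNA, read 5.73, 5.61 and 5.37 in the BATF3 siRNA arrays, against 5.76, 5.65 and 5.73 in the control siRNA arrays (change −0.14, 95% confidence interval −0.39 to 0.11, adjusted p = 0.841). BATF3 siRNA replicate 3 stood lowest, and the change was −0.041 without it and −0.22 without replicate 1. Its only probe set ends in _s_at, which marks probes shared between transcripts of more than 1 gene, and with background as a block its change was 0.021.

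**Figure D3:**
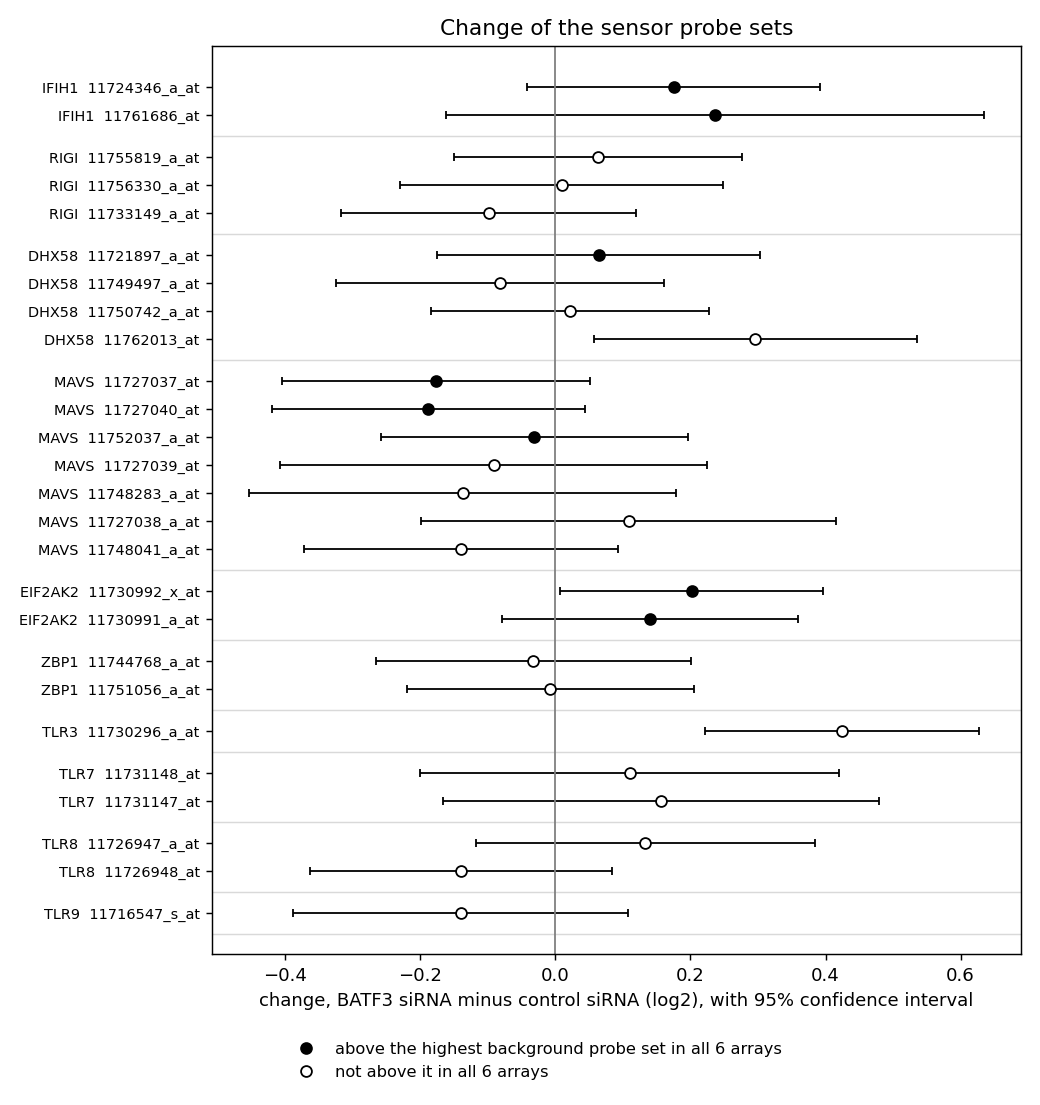
Change (log2, BATF3 siRNA minus control siRNA) of each of the 26 sensor probe sets with its 95% confidence interval from limma; filled points were above the highest background probe set in all 6 arrays. The intervals of TLR3, EIF2AK2 11730992_x_at and DHX58 11762013_at lie above 0, and none of the 26 passed after adjustment over all probe sets.

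Markers of other cell types were read beside the sensors. Of 6 markers of monocytes and macrophages, which express TLR8, 5 were below the brightest background probe set on each array. The member with the smallest p was CD163, a scavenger receptor, at 3.40, 3.07 and 3.14 after BATF3 siRNA, against 2.88, 2.58 and 2.86 after control siRNA (change 0.43, limma adjusted p = 0.55), with the groups apart. CD68 was above that limit, at 8.55, 8.72 and 8.43 after BATF3 siRNA, against 7.92, 8.48 and 7.90 after control siRNA (change 0.47, adjusted p = 0.616). The median change of the list was 0.19, with 2 of 6 at an unadjusted limma p under 0.05, where 7.16% of all probe sets reached it. The mean level of this list was 4.56 to 4.69 in the BATF3 siRNA arrays and 4.38 to 4.50 in the control siRNA arrays, and its part in the sensor values was not tested. CLEC4C, a defining marker of plasmacytoid dendritic cells, which express TLR7 and TLR9, lay at 3.16 to 3.51 after BATF3 siRNA and 3.10 to 3.38 after control siRNA, while IL3RA and TCF4 of the same list were above background. The mean of that list was 7.69 to 7.91 after BATF3 siRNA and 7.62 to 7.79 after control siRNA. All 5 T and NK cell markers were below the brightest background probe set on each array, with list means of 4.41 to 4.57 after BATF3 siRNA and 4.36 to 4.44 after control siRNA. Of these NKG7, a cytotoxic granule gene, changed by 0.40 (adjusted p = 0.616) and CD8A by −0.25 (adjusted p = 0.732), each with the groups apart. Among all genes the groups were apart in 6.36% with BATF3 siRNA higher and in 5.78% with it lower. All 6 Hodgkin lymphoma markers, TNFRSF8 (CD30), CCL17, IRF4, TRAF1, FSCN1 and BATF3, were above it in every array. Of 4 B cell markers PAX5 and CD79B were above it and CD79A and MS4A1 under it. In RNA from a whole culture a change in each cell and a change in some of the cells cannot be told apart.

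Genes that work with the sensors were taken from 9 lists, which held 116 measured genes and partly overlap. By their brightest probe sets 0 of the 116 passed limma's test (0.011% of all genes did). At an unadjusted limma p under 0.05 there were 8, 6 higher and 2 lower, where 7.16% of all probe sets reached it. Welch's test called 0, with 4 under an unadjusted 0.05, where 2286 of all 49393 probe sets were. The groups did not overlap for 14 genes higher after BATF3 siRNA and 2 lower, where 6.36% and 5.78% of all genes did so. The median change was 0.053, against −0.0027 over all genes. A positive change was seen in 78 of the 116, where 49.0% of all genes had one.

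Among 17 genes of RIG-I-like receptor signalling 11 had a positive change (median 0.056, and 0.015 without BATF3 siRNA replicate 1). The members with the smallest p were RIOK3, a kinase reported to act with MDA5, at 0.16 (8.78, 8.63 and 8.83 after BATF3 siRNA, 8.51, 8.62 and 8.64 after control siRNA; limma adjusted p = 0.792), and TARBP2, a double-stranded RNA-binding partner of Dicer and inhibitor of PKR, at −0.17 (adjusted p = 0.80). Among 12 inhibitors of the pathway 8 had a positive change (median 0.063, and 0.041 without control siRNA replicate 2). CYLD, a deubiquitinase, read 8.88, 8.74 and 8.79 after BATF3 siRNA, against 8.45, 8.68 and 8.51 after control siRNA (change 0.26, adjusted p = 0.655). NLRX1, a mitochondrial protein that restrains MAVS, read 7.61, 7.43 and 7.25 after BATF3 siRNA, against 7.76, 7.65 and 7.70 after control siRNA (change −0.27, adjusted p = 0.665). The 2 groups lay apart for both, in opposite directions.

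All 11 measured eIF2alpha kinases and PKR partners had a small positive change in the deposited scaling (0.015 to 0.20, median 0.060, and 0.12 without control siRNA replicate 1), and 10 of 11 under quantile normalization and 9 of 11 under cyclic loess. Among all genes 49.0% were positive as deposited. Limma called 0 of the 11, with 0 at an unadjusted p under 0.05. PPP1R15B, a phosphatase subunit that reverses eIF2alpha phosphorylation, was at 0.19 (limma adjusted p = 0.763), and EIF2S2, a subunit of eIF2, at 0.16 (adjusted p = 0.780). Among 6 ZBP1 partners in cell death 5 were positive (median 0.067, but 0.014 without control siRNA replicate 1 and 0.15 without control siRNA replicate 2), with TRIM34 at 0.17 (adjusted p = 0.759) and the death adaptor FADD at 0.061. For 16 partners of the endosomal receptors the split was 7 positive and 9 negative (median −0.012, and 0.045 without control siRNA replicate 2), and 9 positive and 7 negative under median centring (median 0.0092). IRAK2, a kinase downstream of MYD88, was at 0.32 (5.90, 5.91 and 5.96 after BATF3 siRNA, 5.70, 5.73 and 5.37 after control siRNA; adjusted p = 0.624), and the protease CTSK at −0.28 (adjusted p = 0.799). IRAK2, CTSK and TRIM34 were dim, below the brightest background probe set on each array. Of 16 genes of cytosolic DNA sensing 9 were positive (median 0.022, and −0.039 without control siRNA replicate 1), and 8 under quantile normalization, with the helicase DDX41 at −0.23 (adjusted p = 0.697) and POLR3F, a subunit of RNA polymerase III, at 0.16 (adjusted p = 0.820).

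The output of the sensor pathways was read from interferon genes and interferon-stimulated genes. For 9 interferons and receptors the median change was 0.026, and −0.056 without BATF3 siRNA replicate 1. Interferon transcripts themselves were among the dim probe sets. IFNB1, the first interferon made after RNA sensing, here named outside the rule because it is the direct product, read 3.36, 2.84 and 3.44 after BATF3 siRNA and 3.41, 3.43 and 3.04 after control siRNA (change −0.078, limma adjusted p = 0.954). IFNL1 was at −0.19 (adjusted p = 0.80) and IFNA2 at −0.15 (adjusted p = 0.813), and all 3 were below the brightest background probe set on each array. Of 32 interferon-stimulated genes 24 had a positive change (median 0.060, range −0.18 to 0.41), where 49.0% of all genes had one. Limma called 0 of the 32, with 3 at an unadjusted p under 0.05, all higher. Leaving out 1 array gave medians of 0.046 to 0.11, the highest without control siRNA replicate 2. The groups did not overlap for 7 of the 32, with BATF3 siRNA higher in each, where 6.36% of all genes were higher without overlap and 7.16% of all probe sets had an unadjusted p under 0.05. OASL, a member of the OAS family that boosts RIG-I signalling, read 6.21, 5.72 and 6.03 after BATF3 siRNA, against 5.56, 5.59 and 5.56 after control siRNA (change 0.41, adjusted p = 0.567). IFI44, an interferon-induced gene, averaged 7.13 (SD 0.12) after BATF3 siRNA, against 6.84 (SD 0.14) after control siRNA, without overlap (change 0.29, adjusted p = 0.647). The control siRNA arrays were lower for both. OASL was below the brightest background probe set on each array. IFI44 was above it in 2 arrays only, BATF3 siRNA replicates 2 and 3, where this limit was lowest. Of the 32 genes 15 were above it in every array. In the OAS family and its partners all 6 measured genes were positive (median 0.079, and 0.13 without BATF3 siRNA replicate 1), 4 of them shared with the interferon-stimulated list. OAS2 was at 0.21 (limma adjusted p = 0.665), with 6.94, 6.96 and 6.99 after BATF3 siRNA and 6.73, 6.77 and 6.75 after control siRNA. OAS2 too was above the brightest background probe set in BATF3 siRNA replicates 2 and 3 alone. The median deviation of the interferon-stimulated genes from the control mean was 0.14, 0.035 and 0.076 in BATF3 siRNA replicates 1, 2 and 3, against −0.064, 0.047 and −0.018 in control siRNA replicates 1, 2 and 3. The highest was BATF3 siRNA replicate 1, and control siRNA replicate 2 lay inside the BATF3 siRNA range.

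**Figure D4:**
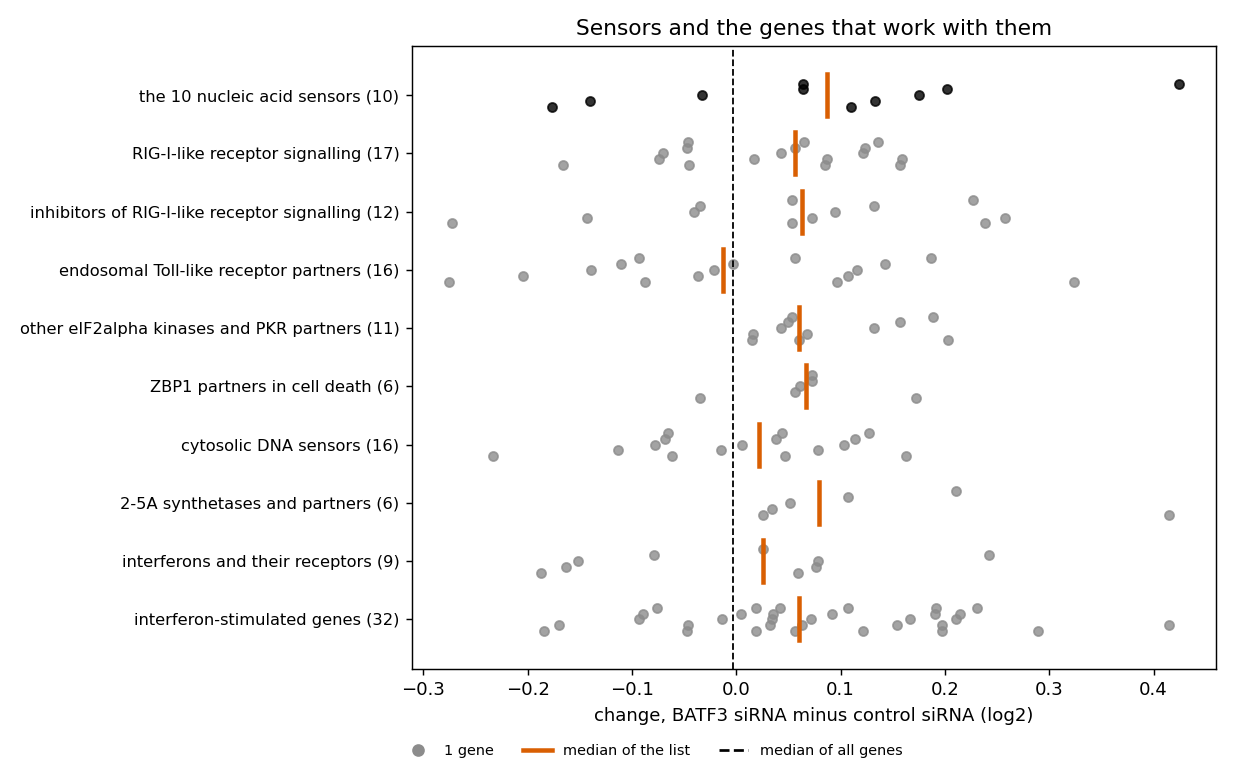
Change (log2, BATF3 siRNA minus control siRNA) of each gene in its brightest probe set, for the 10 sensors and for the lists of genes that work with them, with the number of measured genes in brackets; the orange bar is the list median and the dashed line the median of all genes (−0.0027). All medians but that of the endosomal receptor partners (−0.012 as deposited, 0.0092 under median centring) lie to the right of the dashed line, at 0.022 to 0.087, and no gene shown passed the test; the medians of cytosolic DNA sensing (−0.039) and of interferons and their receptors (−0.056) turned negative on leaving out 1 array.

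The mean profile of the 3 helicases RIGI, IFIH1 and DHX58, each taken relative to its own mean, was shallow. It stood at 0.011, 0.045 and 0.096 in BATF3 siRNA replicates 1, 2 and 3, against −0.066, 0.0015 and −0.087 in control siRNA replicates 1, 2 and 3. Over the 6 arrays the closest of 18234 other genes were SMS, ARGFX, EOLA1, ISM1 and YY1AP1, with root mean square differences of 0.0094 to 0.017 on the log2 scale (median of all genes 0.14). With so flat a profile over 6 arrays, this closeness describes these arrays only.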

How the data were processed

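The authors deposited 1 log2 signal per probe set and array for 6 Affymetrix PrimeView arrays. Per the submitters' processing notes the R package affy was used; its version and the background, normalization and summarization steps: not given in the sources used here. Base 2 was inferred from the value range. Values were used as deposited. Because the arrays share a scale, a change of most transcripts together would be missed. The number of arrays limits the precision.

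Groups came from the sample titles, 3 arrays per siRNA. Gene symbols are those of the platform annotation, checked through Entrez identifiers against RefSeq (GRCh38.p14): 45278 of 49393 probe sets had 1 gene, 1333 several and 2782 none, 45208 identifiers were found and 0 symbols changed. All 49393 probe sets that are not array controls were fitted in R 4.3.3 with lmFit and eBayes of limma 3.58.1 (two-sided, BATF3 siRNA minus control siRNA, no covariate, 4 residual and 9.37 total degrees of freedom). Benjamini-Hochberg adjustment ran over all of them, and a probe set was called at an adjusted p under 0.05. The brightest probe set by its mean over the 6 arrays stood for a gene in list counts. Levels of different probe sets are not comparable with each other. The fit was tested on simulated data.

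The members, the lists, the tests and the alternatives were chosen with earlier results of these data known. The text names all 10 sensors, BATF3, called members of each pathway list or else the 2 with the smallest p, and the 5 genes nearest in profile. Same-numbered replicates were checked for pairing: their deviations from the group means correlated at 0.0014, 0.13 and −0.031. These values gave no sign of pairing, but they cannot show that same-numbered arrays were handled apart. Alternatives covered probe set choice, normalization, a filter on dim probe sets, array weights, variance prior, blocks, threshold, Welch's test and each array left out in turn. Promoter windows came from RefSeq.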

Additional observations from a re-analysis of the deposited data

How the results depend on the processing

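No sensor gene was called under any of the 16 alternative limma fits, and the lowest adjusted p of any sensor probe set in them was 0.10 (TLR3, array weights). The number of probe sets called over the whole table was 5. It was 3 with 1 probe set per gene, 11 with probe sets above the median level alone, 67 with array weights, 9 with an intensity trend and a robust prior, 0 with a block for array background, which leaves BATF3 siRNA replicate 1 against the controls (2817 at an unadjusted p under 0.05), 0 with Welch's test (2286 at an unadjusted p under 0.05) and 0 to 2 on leaving out 1 array. With the replicate block it was 5, and no sensor call changed. BATF3 was at −1.10 with the background block, with the call lost, and at −1.24 to −1.14 on leaving out 1 array, with the call lost each time. Of the 26 sensor probe sets 10 kept their sign throughout and 16 did not, where the average over a gene's probe sets is counted under its brightest one. For the brightest TLR8 probe set this average was the only turn, and its own change stayed positive. With the background block the sign turned for RIGI 11756330_a_at (−0.049), IFIH1 11761686_at (−0.19), DHX58 11749497_a_at (0.049), MAVS 11752037_a_at (0.090), 11727039_at (0.19), 11748283_a_at (0.060) and 11727038_a_at (−0.15), ZBP1 11751056_a_at (0.063), TLR7 11731147_at (−0.066) and TLR9 (0.021). Averaging probe sets turned RIGI (−0.0087) and TLR8 (−0.0030). The second ZBP1 probe set turned with quantile normalization (0.012), with cyclic loess (0.011) and after median centring (0.014). Leaving out 1 array turned the sign of RIGI 11755819_a_at (−0.00074 to 0.10) and 11756330_a_at (−0.069 to 0.072), DHX58 11721897_a_at (−0.020 to 0.15) and 11750742_a_at (−0.019 to 0.062), MAVS 11752037_a_at (−0.092 to 0.053), 11727039_at (−0.23 to 0.038) and 11748283_a_at (−0.24 to 0.0050), ZBP1 11744768_a_at (−0.086 to 0.045) and 11751056_a_at (−0.059 to 0.037) and TLR7 11731148_at (−0.036 to 0.20). The causes were not tested. The filter on dim probe sets removed ZBP1, the Toll-like receptors and other dim probe sets, which have no value there. Signal over background limits what can be said of these genes. The comparison of list medians in BATF3 siRNA replicate 1 alone was added after seeing the data, and gave 0.14 for the interferon-stimulated genes.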
